A study of Mus musculus with 24 samples.

Results

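The regions described here are those of the 5hmC table that sets prenatally stressed wild-type mice (StressWT) against unstressed wild-type mice (ControlWT). All its autosomal regions were taken, 33215 of the 33234 regions in the table and of 160195 regions over the 5 tables of the series; the other 19 lie on chromosome X. StressWT mice were wild type for Cntnap2 and were born to dams given 7 days of variable stress from embryonic day 12.5. ControlWT mice were wild type for Cntnap2 and their prenatal condition was non-stressed. All were labelled female and C57BL/6, were ear-tagged on postnatal day 12 and weaned on day 18, and gave micropunched striatum 2 hours after lights on, with 3 mice in each group. The labels used here do not state the age at collection. The dams carried wild-type and Cntnap2 heterozygous embryos together, so littermates of these mice could be heterozygous, and the labels do not say which mice shared a litter. DNA and RNA libraries carry the same mouse numbers in the labels.

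5-Hydroxymethylcytosine (5hmC) is made when TET dioxygenases oxidise 5-methylcytosine, the methyl mark placed on DNA by DNA methyltransferases. It is a stable mark in neurons, where it is found largely in gene bodies and enhancers, and it is also a step on the way to removal of the methyl group, completed by base excision repair. Enrichment sequencing, as used here, gives the number of fragments carrying 5hmC in a region relative to the other regions of the library, not the share of cytosines that carry it.

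The autosomal regions were 1001 to 6893 bp wide, with a median of 1136 bp, and covered 43.8 Mb. Neighbouring regions were separated by a median of 14.7 kb, with the middle of the distribution between 4.28 and 53.5 kb. The libraries held 1614413, 1956720 and 2488247 counts in StressWT and 1826270, 3813327 and 2876376 counts in ControlWT (replicates 1 to 3), and no region had a count of 0 in any library. The median region had 22.5 CPM (counts scaled to library size, with trimmed mean of M values, TMM), so that a typical region rested on 34 to 57.5 counts per StressWT library and 41 to 89 counts per ControlWT library. Replicate 1 stood apart in each group: on the first 2 principal components, which held 26.9% and 26.5% of the variance, StressWT replicate 1 lay at one end of the first and ControlWT replicate 1 at one end of the second. The RNA library of the mouse labelled StressWT replicate 2 had 1.32 TPM of Xist RNA, the transcript of the inactive X chromosome, against 46.9 and 87.9 TPM in the other 2 StressWT mice and 32.3 to 109 TPM in ControlWT, although all mice were labelled female. Counts with and without the libraries of these mice are given below.

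No autosomal region passed the test of StressWT against ControlWT at an adjusted p below 0.05. By edgeR's quasi-likelihood test with Benjamini-Hochberg adjustment, 0 of 33234 regions were called (0%), and the smallest adjusted p was 0.142. At an unadjusted p below 0.05 there were 2941 regions (8.85%), of which 1496 had the higher mean in StressWT (4.5%) and 1445 had the lower mean in StressWT (4.35%). The 3 StressWT libraries all lay above the 3 ControlWT libraries in 2335 regions (7.03%) and all below them in 2278 regions (6.85%). DESeq2 also called 0 regions, with 1040 at an unadjusted p below 0.05 (3.13%), and limma-voom called 0, with 3007 (9.05%).

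The differences between the groups were small in most regions. The median log2 fold change over autosomal regions (StressWT over ControlWT) was -0.004, 76.3% of the regions lay within 0.25 of 0 on the log2 scale, and the central 98% lay between -0.52 and 0.52. A change of more than 1 on the log2 scale was seen in 3 regions, 2 with the higher mean in StressWT and 1 with the lower. The common biological coefficient of variation was 0.0691. Of the 2936 autosomal regions at an unadjusted p below 0.05, 426 stayed below 0.05 in all 6 fits that each left out 1 library; these fits share most of the libraries that chose the regions.

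**Figure D1:**
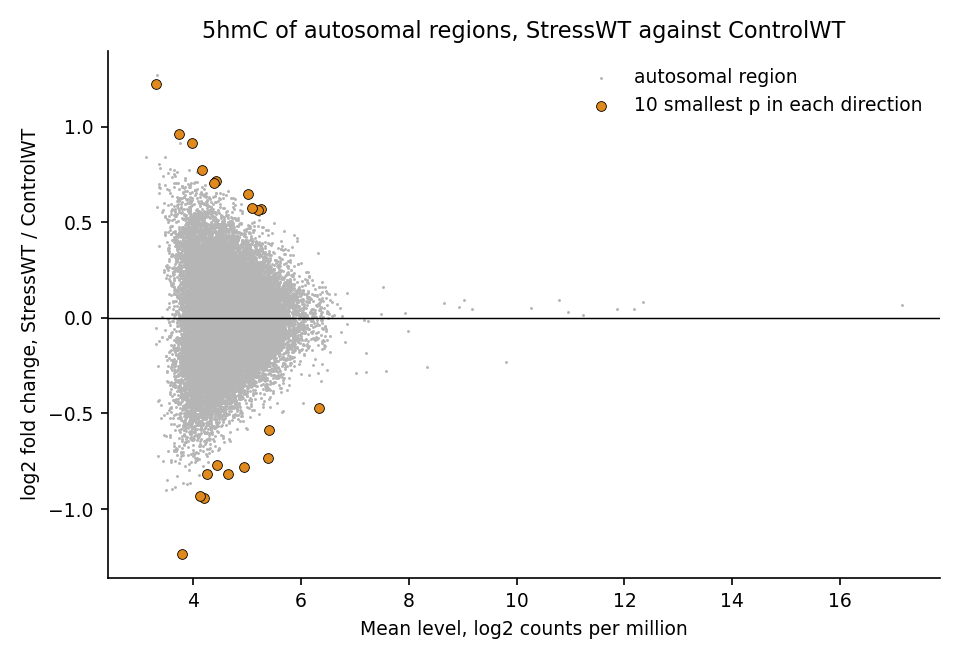
Each grey point is an autosomal region, with its mean level in log2 CPM on the x axis and its log2 fold change, StressWT over ControlWT, on the y axis; orange points are the 10 regions of smallest p in each direction. The cloud is centred near 0 (median -0.004) and narrows as the level rises, and none of the orange regions passed an adjusted p of 0.05.

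The calls depended on replicate 1 of each group. Without ControlWT replicate 1, 7 regions passed an adjusted p of 0.05, 2 with the higher mean in StressWT and 5 with the lower. Without StressWT replicate 1, 2 regions passed, both lower in StressWT. Without the 5hmC library of StressWT replicate 2, the mouse whose RNA library had little Xist, 0 regions passed, the smallest adjusted p was 0.058 and 2767 regions had an unadjusted p below 0.05.

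Among regions with a lower mean in StressWT, the smallest p belonged to chr18:84445537-84446599 (mm9). It had 23, 21.4 and 20 CPM in StressWT and 24.1, 40.5 and 40.8 CPM in ControlWT. The groups did not overlap, but ControlWT replicate 1 lay close to the StressWT libraries and the other 2 ControlWT libraries far above them. The log2 fold change was -0.78 ± 0.17 (SE; adjusted p = 0.142 by edgeR's quasi-likelihood test). It was -0.93 without ControlWT replicate 1, with an adjusted p of 0.00111.

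The region chr8:81115335-81116791 had 42.8, 28.4 and 22.8 CPM in StressWT, against 36.8, 51.3 and 57.5 CPM in ControlWT. Here the groups overlapped, since StressWT replicate 1 lay above ControlWT replicate 1. Its log2 fold change was -0.73 ± 0.16 (SE; adjusted p = 0.142 by edgeR). Alone among the regions it passed the threshold in both of the fits that called any, at -0.98 without StressWT replicate 1 (adjusted p = 0.00169) and -0.86 without ControlWT replicate 1 (adjusted p = 0.00111).

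The largest difference among the regions of smallest p was at chr5:11477208-11478225, with 4.61, 11 and 6.29 CPM in StressWT and 25.8, 13.4 and 16.7 CPM in ControlWT. The groups did not overlap, and the region is among the shallow ones, with 7, 22 and 16 counts in StressWT and 47, 52 and 48 counts in ControlWT. The log2 fold change was -1.23 ± 0.27 (SE; adjusted p = 0.142 by edgeR), and it ranged between -1.63 and -1 when each library was left out.

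At chr11:65498498-65499499 the values were 7.9, 12 and 13.4 CPM in StressWT and 19.2, 22.7 and 23.4 CPM in ControlWT. All ControlWT libraries were above all StressWT libraries, with a log2 fold change of -0.94 ± 0.21 (SE; adjusted p = 0.142 by edgeR). A similar picture held at chr13:74484734-74485919, with 7.9, 11 and 13 CPM in StressWT and 21.4, 21.4 and 20.2 CPM in ControlWT. The 3 ControlWT values there were nearly equal (21 ± 0.675 CPM, SD, n = 3), against 10.6 ± 2.55 CPM in StressWT (SD, n = 3). They rest on 39, 83 and 58 counts in ControlWT and 12, 22 and 33 in StressWT, at a region chosen for its small p. The log2 fold change was -0.93 ± 0.21 (SE). The widest of these 10 regions, chr11:3062800-3065465, also had the most counts, with 63.8, 71.2 and 63.6 CPM in StressWT and 81.8, 94 and 97.3 CPM in ControlWT.

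The other 4 regions of this group were chr19:5860640-5862192, chr6:21658044-21659430, chr9:77605500-77607599 and chr16:24676458-24678098. Their log2 fold changes lay between -0.82 and -0.59. The groups overlapped at the region on chromosome 19, where StressWT replicate 2 (21.9 CPM) was above ControlWT replicate 1 (20.3 CPM), and did not overlap at the other 3.

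Among regions with a higher mean in StressWT, the smallest p belonged to chr10:117021399-117022595. It had 22.4, 18.4 and 20.4 CPM in StressWT and 11, 10.6 and 10.8 CPM in ControlWT. The group means were 20.4 ± 1.97 CPM in StressWT and 10.8 ± 0.207 CPM in ControlWT (SD, n = 3 each). They rest on 34, 37 and 52 counts in StressWT and 20, 41 and 31 counts in ControlWT. The region was chosen for its small p, which favours groups that are far apart and tight. The log2 fold change was 0.91 ± 0.22 (SE; adjusted p = 0.238 by edgeR), and it stayed between 0.86 and 0.98 when each library was left out.

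At chr5:96733769-96734900 the values were 38.8, 41.4 and 37.7 CPM in StressWT, against 34, 21.6 and 23 CPM in ControlWT. The StressWT mice were alike, and ControlWT replicate 1 lay between them and the other 2 ControlWT mice. The log2 fold change was 0.65 ± 0.16 (SE; adjusted p = 0.252 by edgeR). It was 0.82 without ControlWT replicate 1 (adjusted p = 0.0114).

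The largest difference of this group was at chr13:70163025-70164059, with 10.5, 12.5 and 16.5 CPM in StressWT and 4.39, 7.47 and 4.53 CPM in ControlWT. Its log2 fold change was 1.22 ± 0.31 (SE; adjusted p = 0.302 by edgeR), on 16, 25 and 42 counts in StressWT and 8, 29 and 13 counts in ControlWT. The groups did not overlap, and no StressWT library fell below 10 CPM.

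The region chr8:39599671-39600730 had 15.1, 20.4 and 16.1 CPM in StressWT and 7.68, 9.28 and 9.07 CPM in ControlWT, a log2 fold change of 0.96 ± 0.25 (SE). At chr11:35759258-35760393 the values were 27, 25.4 and 27.1 CPM in StressWT and 13.7, 18 and 15.3 CPM in ControlWT, with a log2 fold change of 0.71 ± 0.18 (SE). The StressWT values were closer to one another than the ControlWT values in the second of these regions and farther apart in the first. The other 5 regions were chr10:118668699-118669994, chr18:80246500-80247599, chr4:100064295-100065400, chr7:81579999-81581134 and chr9:13789300-13790309, with log2 fold changes between 0.57 and 0.78, and the groups overlapped at none of the 5.

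**Figure D2:**
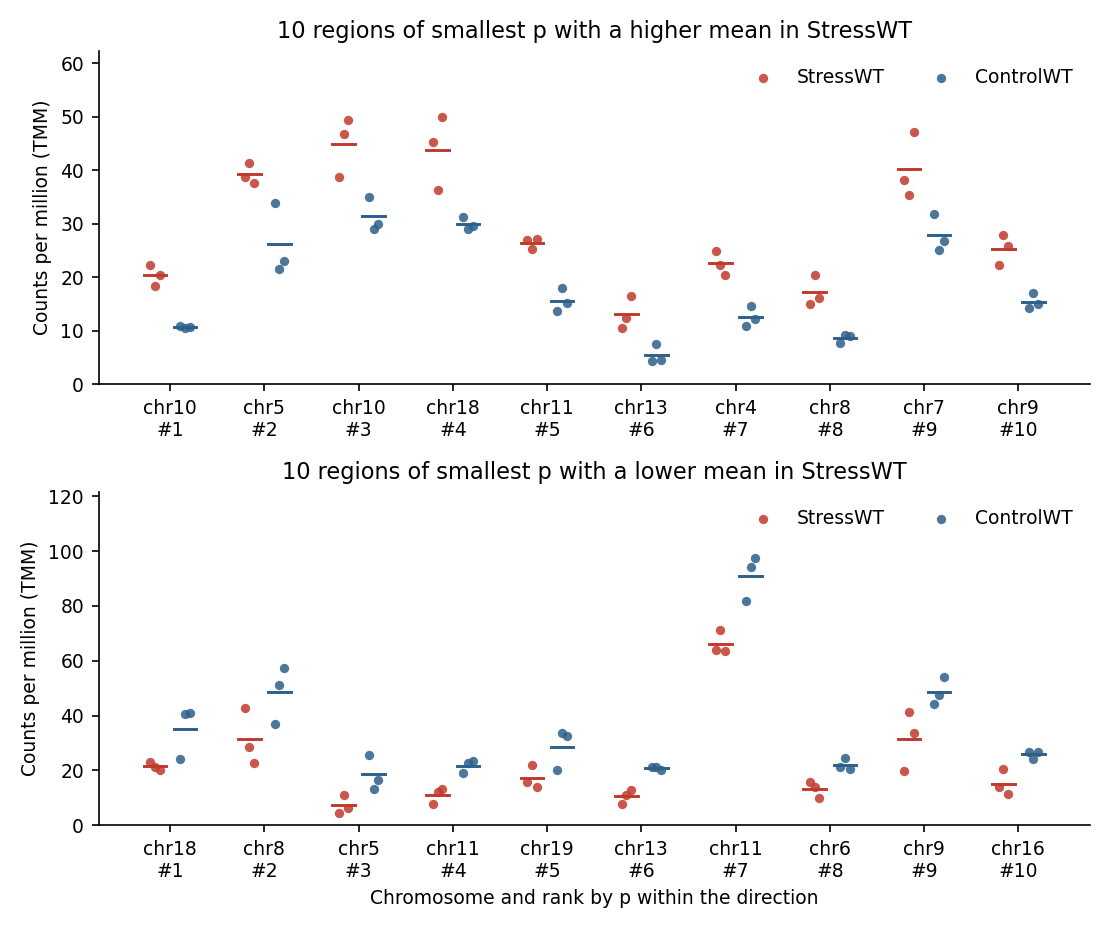
CPM (TMM, y axis) of each library at the 10 regions of smallest p with a higher mean in StressWT (upper panel) and with a lower mean in StressWT (lower panel), ordered by p; each point is 1 mouse and each bar a group mean, StressWT in red and ControlWT in blue. The groups overlap at 2 of the lower regions, on chromosomes 8 and 19, and the ControlWT libraries at chr18 rank 1 split into 24.1 CPM and 40.5 to 40.8 CPM.

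The regions with the most counts had no difference larger than the spread between mice. The region chr2:98501981-98507835 held 12.6 to 18.6% of a StressWT library and 13.2 to 14.9% of a ControlWT library. Its values were 198000, 126000 and 123000 CPM in StressWT and 149000, 130000 and 147000 CPM in ControlWT, so that StressWT replicate 1 was the highest and the other 2 StressWT mice were the lowest. The log2 fold change was 0.07 ± 0.49 (SE), and it was -0.19 without StressWT replicate 1. The next 2 by level, chr9:35112300-35113499 and chr9:2999659-3003299, were 7030 and 6270 CPM in StressWT replicate 1, against 4510 and 3980 CPM in StressWT replicate 2, and both reversed sign without StressWT replicate 1.

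The widest region, chr2:6278949-6285841, spanned 6893 bp and had 187, 165 and 189 CPM in StressWT and 162, 190 and 177 CPM in ControlWT. The groups overlapped, with a log2 fold change of 0.02 ± 0.11 (SE). The next 2 by width, chr9:3024600-3030599 and chr9:3015000-3020999, were 6000 bp each, lay near the start of the assembled chromosome 9 and had log2 fold changes of 0.05 and 0.03.

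The level of a region moved with how often it fell below an unadjusted p of 0.05. In the lowest of 4 equal level classes (8.38 to 18.4 CPM), 11.9% of the 8304 regions did so, 453 with the higher mean in StressWT and 539 with the lower. In the highest class (28.8 CPM and above), 6.95% of 8304 regions did so, 346 with the higher mean in StressWT and 231 with the lower. The median size of the log2 difference, without its sign, was 0.195 in the lowest class and 0.106 in the highest. By width, the share was 10.1% in the narrowest class (1001 to 1048 bp) and 7.82% in the widest (1427 to 6893 bp).

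The direction of the difference moved with which other tables a region appears in. Every autosomal region overlapped a region of at least 1 other table by at least 1 bp. The 4002 regions shared with the other table that holds StressWT libraries, and with neither of the other 2 tables that hold ControlWT libraries, had the higher mean in StressWT in 88.1% of cases, with a median log2 fold change of 0.203. Of these regions, 603 had an unadjusted p below 0.05 with the higher mean in StressWT and 1 with the lower. The 12573 regions shared only with tables that hold ControlWT libraries had the higher mean in StressWT in 25.4% of cases, with a median of -0.117, and 54 against 1114 at an unadjusted p below 0.05. The 16640 regions shared with both kinds had a median of 0.037, and 838 against 326. These tables hold the same libraries, and where regions have identical positions the counts of a shared library were equal in 100% of them, so the classes are no independent measure of the difference. The sources used here do not state how regions were selected for a table, and the part of that selection in the share of regions below 0.05 was not tested.

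Of the 10 named regions with the higher mean in StressWT, 7 were shared with the other StressWT table only and 3 with both kinds. Of the 10 with the lower mean, 6 were shared with ControlWT tables only and 4 with both kinds.

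**Figure D3:**
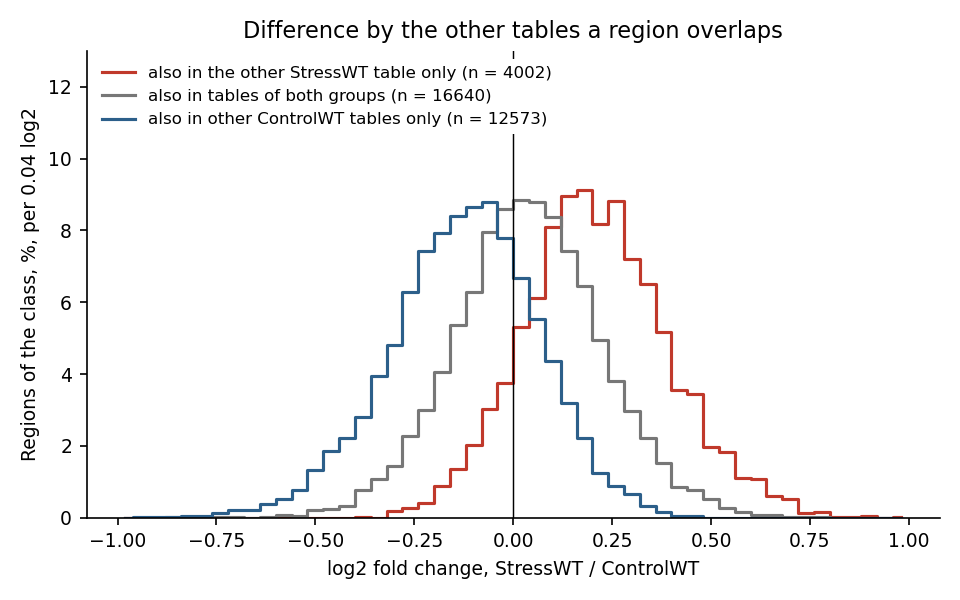
Distribution of the log2 fold change (StressWT over ControlWT, x axis) as the percent of the regions of each class per step of 0.04 (y axis), for regions that also appear in the other StressWT table only (red), in tables of both groups (grey) and in other ControlWT tables only (blue). The red class is centred at 0.203, the grey at 0.037 and the blue at -0.117.

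Summed over windows of 1000000 bp, which hold a median of 11 regions, no window passed the threshold either. Of 2169 windows, 0 were called by edgeR's quasi-likelihood test (0%, smallest adjusted p 0.0906), and 181 had an unadjusted p below 0.05 (8.34%). DESeq2 also called 0, with 64 at an unadjusted p below 0.05 (2.95%). Since none was called, the windows below were chosen after their values were seen. The smallest p belonged to chr3:147000001-148000000, with 410, 387 and 389 CPM in StressWT and 340, 332 and 327 CPM in ControlWT. Its groups did not overlap and 15 of its 16 regions had the higher mean in StressWT, with a log2 fold change of 0.25 ± 0.05 (SE; adjusted p = 0.0906 by edgeR).

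A second window on the same chromosome, chr3:143000001-144000000, had 397, 428 and 428 CPM in StressWT and 362, 357 and 345 CPM in ControlWT. All StressWT mice were above all ControlWT mice, and 16 of its 18 regions had the higher mean in StressWT. Its log2 fold change was 0.24 ± 0.05 (SE; adjusted p = 0.0906 by edgeR). In the opposite direction, chr1:55000001-56000000 had 946, 986 and 953 CPM in StressWT and 1080, 1080 and 1060 CPM in ControlWT. Of its 42 regions, 36 had the lower mean in StressWT and 4 had an unadjusted p below 0.05, and the window's log2 fold change was -0.16 ± 0.03 (SE; adjusted p = 0.147 by edgeR).

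The number of windows called changed when a ControlWT library was left out. Without ControlWT replicate 1, 41 windows passed, 29 higher and 12 lower in StressWT, among them the 3 windows just named, at adjusted p of 0.00125, 0.00122 and 0.00542 by edgeR. Without ControlWT replicate 2, 2 passed, and without StressWT replicate 2 or any other single library, 0 passed.

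**Figure D4:**
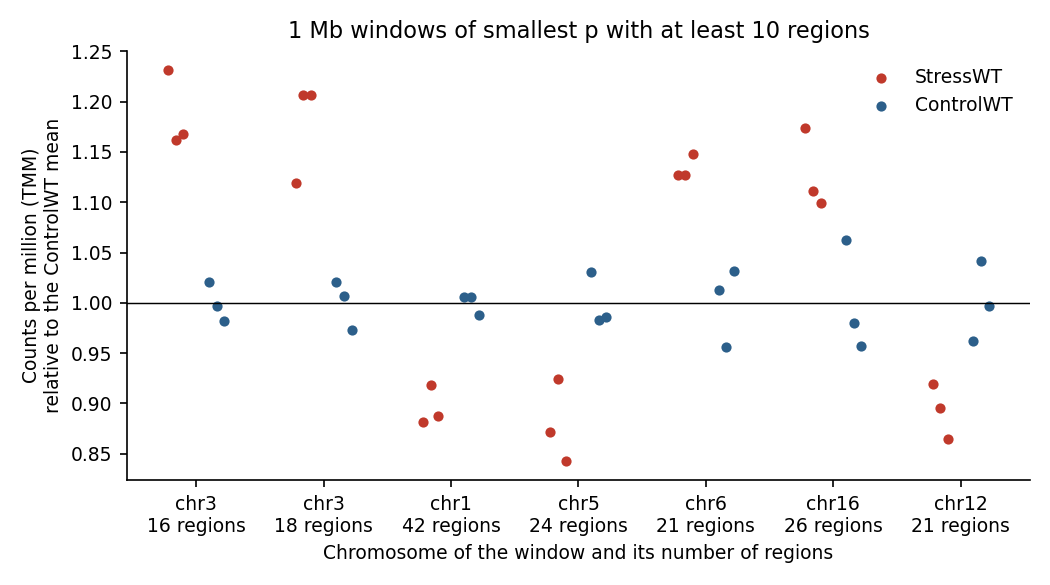
CPM (TMM) of each library in the windows of smallest p that hold at least 10 regions, divided by the ControlWT mean of that window (y axis, not starting at 0); StressWT in red, ControlWT in blue, 1 point per mouse. In each of these windows, which were chosen for their small p, the 3 StressWT mice lie on one side of the 3 ControlWT mice.

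The regions were spread unevenly over chromosomes, and the spread did not separate the groups. Chromosome 19 held 18.3 regions per Mb of the span they cover, chromosome 18 held 18.2 and chromosome 7 held 6.94, the lowest of the autosomes. Chromosome 2 took 24.6, 19.4 and 19.1% of the counts in StressWT and 21.3, 19.7 and 21% in ControlWT, and without its single region of most counts it took 7.36, 7.43 and 7.38% in StressWT and 7.5, 7.45 and 7.43% in ControlWT. The groups overlapped on all 20 chromosomes, X included. Without that region they did not overlap on chromosome 4, where the share was 5.13 ± 0.0147% in StressWT and 5.16 ± 0.0159% in ControlWT (SD, n = 3 each; two-sided exact permutation p = 0.1, the smallest that 3 against 3 allows, adjusted p = 0.75 over the chromosomes). Without StressWT replicate 1 the groups did not overlap on 12 chromosomes. The shares of a library sum to 100%, so these chromosomes are not independent of one another. The region of most counts then held 12.9 and 12.6% of the StressWT libraries and 13.2 to 14.9% of the ControlWT libraries.

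The median log2 fold change per autosome lay between -0.037 on chromosome 7 and 0.022 on chromosome 8. On chromosome 8, 53.7% of 1587 regions had the higher mean in StressWT, with 93 against 45 at an unadjusted p below 0.05. On chromosome 7, 44.2% of 1030 regions had the higher mean in StressWT, with 40 against 52. Over all 33215 autosomal regions the share was 49.4%, with 1495 against 1441. These 2 chromosomes were picked as the extremes after their values were seen. Their regions share the same 6 libraries, so the counts are a description with no test.

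The stress difference in wild type was set beside that in Cntnap2 heterozygous mice (StressHet against ControlHet), which shares no mouse with it. Of the autosomal wild-type regions, 19312 overlapped a region of the heterozygous table (58.1% of the wild-type regions, and 59.3% of the heterozygous ones). Over these regions the log2 fold changes of the 2 genotypes had a Pearson r of 0.014, and 50.3% had the same sign; the regions of a table share their 6 libraries, so this is a description. Of the 1413 overlapping regions at an unadjusted p below 0.05 in wild type, 704 had the same sign in heterozygous mice (49.8%). At an unadjusted p below 0.05 by edgeR in both genotypes, 92 regions had the same sign and 57 had opposite signs. The heterozygous table had 2 regions called (0.00621%) and 3203 at an unadjusted p below 0.05 (9.95%). Only 448 regions had identical positions in the 2 tables, so the difference between the genotypes was not tested.

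Of the 20 regions of smallest p, 7 overlapped a region of the heterozygous table, as did all 6 of the widest and most counted regions. At chr5:96733769-96734900 the overlapping region had 35.8, 42 and 41.5 CPM in StressHet and 31.5, 26.6 and 32.4 CPM in ControlHet, a log2 fold change of 0.39 ± 0.16 (SE), in the same direction as in wild type. At chr18:84445537-84446599 it had 29.3, 21.4 and 21.4 CPM in StressHet and 22.8, 46 and 28.3 CPM in ControlHet, with groups that overlapped and a log2 fold change of -0.43 ± 0.19 (SE). At 5 of the 6 widest and most counted regions, chr2:98501981-98507835 and the 4 on chromosome 9, all StressHet libraries lay above all ControlHet libraries. Their log2 fold changes were 0.36 to 0.42 in heterozygous mice, beside 0.03 to 0.08 in wild type, where the groups overlapped. This difference was not tested. The 6 heterozygous libraries had the same order at all 5 regions, so these are not 5 separate observations. The 2 windows on chromosome 3 had log2 fold changes of 0.04 ± 0.06 and 0.01 ± 0.05 (SE) in heterozygous mice, and the window on chromosome 1 had 0.05 ± 0.04 (SE).

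In RNA of the same 6 mice, no gene passed the same test. Of 15955 genes tested, 0 were called by edgeR (0%), and 397 had an unadjusted p below 0.05 (2.49%); without the RNA library of StressWT replicate 2, 0 were called and 460 had an unadjusted p below 0.05. DESeq2 called 12, all lower in StressWT, among them the myelin genes Mal and Ugt8a. The others were Rab37, Klhl4, Enpp2, Ndrg1, Car14, Shox2, Rpsa-ps10 and genes without a symbol. Some of these were near 0 in StressWT, such as Shox2, with a mean of 0.0967 TPM in StressWT and 2.03 TPM in ControlWT. Gene positions of mm9 were not used here, so regions were not linked to genes. Over the 19 autosomes, the median log2 fold change of the RNA and that of the 5hmC regions had a Pearson r of 0.04 and a Spearman rho of 0.04, a description over chromosomes that share their libraries.

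The genes that write, read and remove the mark had RNA levels that overlapped between the groups. Of the TET enzymes and their cofactors, 0 of 8 tested were called, with a median log2 fold change of -0.02, beside -0.01 over all genes tested. Tet2, a TET dioxygenase, had 1.95, 2.33 and 4.25 TPM in StressWT and 1.13, 1.84 and 4.15 TPM in ControlWT. Replicate 3 was the highest in both groups, and the log2 fold change was 0.28 ± 0.35 (SE). Tet3 behaved likewise, with 2.11, 2.61 and 6.06 TPM in StressWT and 0.88, 2.15 and 5.68 TPM in ControlWT. Cxxc5, a CXXC zinc finger protein, had 16.1, 17.6 and 18.1 TPM in StressWT and 13.6, 20.7 and 22.8 TPM in ControlWT.

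Of the DNA methyltransferase list, 3 of 4 members passed the filter on low counts and 0 were called; Dnmt3b, at 0.1 to 0.16 TPM in StressWT and 0.12 to 0.33 TPM in ControlWT, did not pass it. Dnmt1, the maintenance methyltransferase, had 7.15, 5.99 and 14.9 TPM in StressWT and 6.23, 6.36 and 12.2 TPM in ControlWT, a log2 fold change of 0.12 ± 0.24 (SE). Uhrf1, which brings Dnmt1 to hemimethylated DNA, was near the lower limit, at 0.23 to 0.69 TPM in StressWT and 0.15 to 0.44 TPM in ControlWT, a log2 fold change of 0.3 ± 0.48 (SE). Both of these values changed sign when a single library was left out.

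Of 9 reader genes, 0 were called, with a median log2 fold change of 0.07. Mbd4, a methyl-CpG binding glycosylase, had 2.37, 3.25 and 4.06 TPM in StressWT and 2.28, 2.3 and 3.27 TPM in ControlWT, and Mbd1 had 11.6, 11.3 and 19 TPM in StressWT and 8.47, 12.1 and 16.1 TPM in ControlWT. The groups overlapped for both genes.

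Of 11 genes of removal and repair, 0 were called, with a median log2 fold change of 0.03. Gadd45a, a stress-induced gene linked to demethylation, had the smallest p of the 4 lists, with 7.28, 9.78 and 8.38 TPM in StressWT and 8.42, 13.6 and 7.79 TPM in ControlWT. ControlWT replicate 2 was the highest and the groups overlapped, with a log2 fold change of -0.46 ± 0.26 (SE; adjusted p = 1 by edgeR). Tdg, the thymine DNA glycosylase that excises oxidised derivatives of 5-methylcytosine, had 17, 15.5 and 21.2 TPM in StressWT and 9.96, 13.2 and 20.2 TPM in ControlWT, a log2 fold change of 0.19 ± 0.15 (SE).

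**Figure D5:**
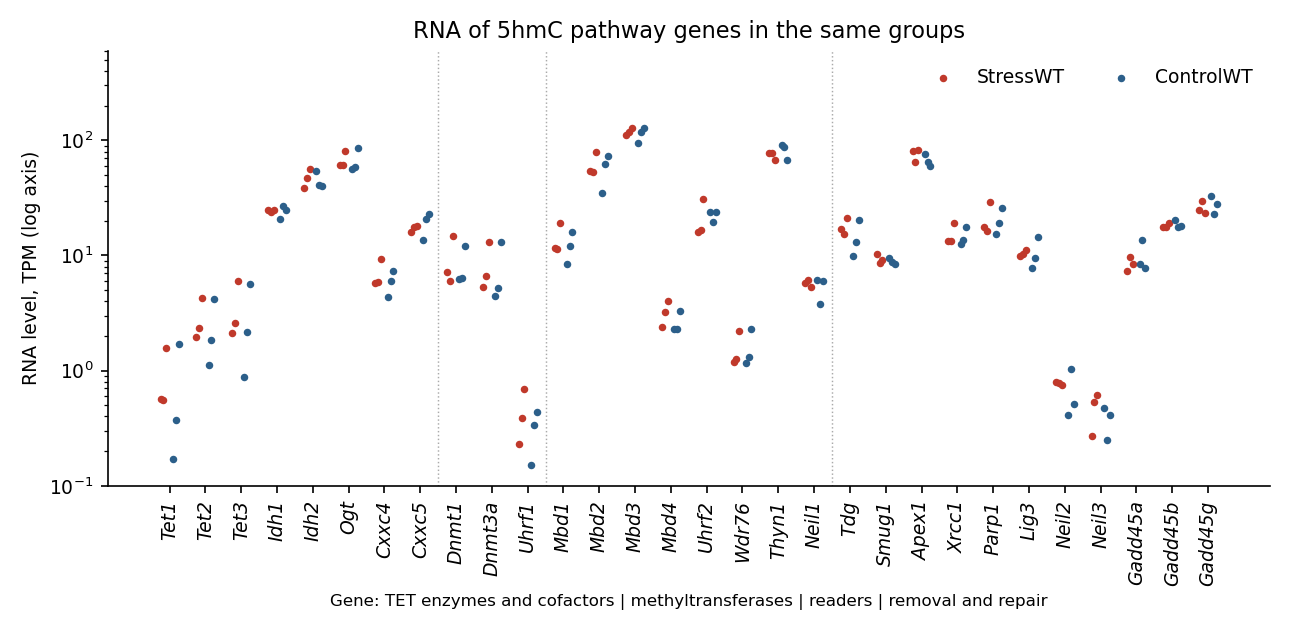
RNA level in TPM (y axis, logarithmic) of the tested members of the 4 lists other than 1 reader, 1 point per mouse, StressWT in red left of ControlWT in blue; dotted lines part the TET enzymes and cofactors, the methyltransferases, the readers and the genes of removal and repair. The 2 groups overlap for every gene shown.

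Summed RNA levels of the markers of other cell types were apart in the 2 groups for some lists and overlapped for others. In bulk tissue, causes such as fewer cells of a type and less RNA per cell cannot be told apart. The summed level of 12 oligodendrocyte markers was 6860 to 9830 TPM in StressWT and 9180 to 14000 TPM in ControlWT, with 12 of 12 genes at the lower value in StressWT, 10 of them at an unadjusted p below 0.05 and 0 called by edgeR; over all 15955 genes tested, 8163 had the lower value in StressWT and 397 (2.49%) had an unadjusted p below 0.05. These sums overlapped, as StressWT replicate 2 (9830 TPM) was above ControlWT replicate 1 (9180 TPM). The 4 choroid plexus markers summed to 2.33 to 13.1 TPM in StressWT and 295 to 572 TPM in ControlWT. Ttr made up most of that ControlWT sum, at 290 to 556 TPM, and the groups overlapped at Kl. The 4 thalamus markers summed to 22.8 to 30.5 TPM in StressWT and 39.4 to 117 TPM in ControlWT. Among them, the groups overlapped at Prkcd, Slc17a6 and Tcf7l2, and ControlWT replicate 3 had the highest sum. In each of these lists 4 of 4 genes had the lower value in StressWT. By edgeR, 2 in each were at an unadjusted p below 0.05, beside the same 2.49% over all genes, and 0 were called. The 11 detected markers of striatal neurons summed to 5160 to 8280 TPM in StressWT and 5380 to 6310 TPM in ControlWT, so that the labelled tissue carried its defining markers in every library. These sums overlapped. By edgeR, 11 of 11 had the higher value in StressWT (median log2 fold change 0.12), with 0 at an unadjusted p below 0.05. The 4 markers of immature neurons summed to 8.23 to 15 TPM in StressWT and 6.29 to 9.19 TPM in ControlWT, so these sums overlapped. By edgeR, 4 of 4 had the higher value in StressWT and an unadjusted p below 0.05, beside the same 2.49% over all genes. None of them was called. Their levels were low, at 0.53 to 5.12 TPM, and the groups overlapped at Sox4, Dcx and Dlx2 but not at Sox11. The 6 astrocyte markers summed to 1250 to 1360 TPM in StressWT and 1450 to 1500 TPM in ControlWT, which did not overlap. Most of this sum was Aldoc, at 943 to 987 TPM in StressWT and 1000 to 1190 TPM in ControlWT. The groups overlapped at every other astrocyte marker. By edgeR, 2 of the 6 had the higher value in StressWT, 4 had the lower, 1 had an unadjusted p below 0.05 and 0 were called. The sums overlapped for microglia (212 to 250 TPM in StressWT and 240 to 286 TPM in ControlWT), endothelium (56.4 to 88.8 TPM in StressWT and 65 to 85.1 TPM in ControlWT), ependyma (4.2 to 11.3 TPM in StressWT and 6.34 to 12.5 TPM in ControlWT) and cortex (12.8 to 129 TPM in StressWT and 26 to 124 TPM in ControlWT). By edgeR, 6 of 6 microglia and 3 of 4 endothelium markers had the lower value in StressWT. In contrast, 3 of 4 ependyma and 3 of 3 cortex markers had the higher value. In each of these lists 0 genes were at an unadjusted p below 0.05. Of the matched markers of these lists, 0 were at 0 in all 6 libraries. The part of such differences in the 5hmC values was not tested.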

How the data were processed

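5hmC-enriched DNA and RNA of striatum were sequenced from 3 StressWT and 3 ControlWT mice. Per the submitters' processing notes, Bowtie 0.12.7 and the build mm9 were used for 5hmC, and the deposited tables hold raw read counts per region and library, per the file headers. The same notes name RSEM, Bowtie and NCBIM37 for RNA; the deposited files give an expected count and a TPM per gene, with tool versions not given in the sources used here. Replicates are separate mice, so p-values reflect differences among these animals. The stress was given to the dams and the litters are not stated, so spread between litters could not be assessed.

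All regions with at least 1 count were fitted on the table's 6 libraries with edgeR 4.0.16 (TMM, robust quasi-likelihood, two-sided, Benjamini-Hochberg, called at 0.05) in R 4.3.3; X regions were fitted too but are outside the autosomal description. Expected counts were rounded and fitted over all 12 RNA libraries with 4 group means after filterByExpr. Windows hold regions by midpoint. Overlaps (GenomicRanges 1.54.1) needed 1 bp. Alternatives used DESeq2 1.42.0, limma-voom 3.58.1, other scalings and filters, a replicate block and each library left out. Each fit was tested on simulated data. Replicates were set against sampling noise by a chi-square per region, 1.13 to 2.19 within groups on library totals and 1.13 to 1.74 with TMM and without the region of most counts, and none was counted as a duplicate. 0 value columns had no sample.

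Named regions are the 10 of smallest p in each direction, the 3 widest and the 3 of highest level; named RNA genes are the 2 of smallest p in each list, to which Tet3 and Dnmt3b were added after their values were seen. The values of 1 reader gene are not reported here. The members and lists were chosen with earlier results of these data known. Symbols and chromosomes of genes came from a RefSeq table of GRCm38.p6 (92.8% of genes tested had a chromosome); none of its coordinates was used.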

Additional observations from a re-analysis of the deposited data

Results flagged for a closer look

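At chr18:80246500-80247599 the groups were apart in opposite directions in the 2 genotypes. The region is 1 of 57 with opposite signs at an unadjusted p below 0.05 by edgeR in both genotypes. Another 92 had the same sign, among 19312 overlapping regions. In wild type the values were 45.4, 36.4 and 49.9 CPM in StressWT and 31.3, 29.1 and 29.6 CPM in ControlWT, a log2 fold change of 0.57. In Cntnap2 heterozygous mice, the overlapping region had 45.2, 43.6 and 35.7 CPM in StressHet and 50.6, 50.5 and 54.5 CPM in ControlHet, a log2 fold change of -0.31. The difference between the genotypes was not tested, since the 2 tables give this stretch different ends, and neither value passed an adjusted p of 0.05 in its own table.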

How the results depend on the processing

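The count of 0 regions called held with other scalings, DESeq2, limma-voom, filterByExpr, the region of most counts left out, the replicate block and, added after seeing the data, autosomal regions alone. With each library left out the count ranged over 0 to 7, with 0 to 2 higher and 0 to 5 lower. For windows, 1 was called with total counts only, 6 with the replicate block (among them the windows named on chromosomes 3 and 1, at adjusted p of 0.0117, 0.0117 and 0.0283 by edgeR), and 0 to 41 with each library left out. Same-numbered mice had correlations of deviations of 0.106, 0.041 and 0.006, so the numbers were not taken to pair them; the block called 0 regions and 0 RNA genes. Chromosomes whose groups did not overlap numbered 1 without the region of most counts and 0 to 12 with each library left out. The Pearson r with heterozygous mice was 0.015 at an overlap of 50% of both regions. RNA genes called numbered 12 with DESeq2 and 0 to 1 with each library left out. The cause of these changes was not tested.

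Signs reversed at regions near 0 and at low genes. Without StressWT replicate 1 the log2 fold changes were 0 at chr2:6278949-6285841, -0.19 at chr9:3024600-3030599, -0.21 at chr9:3015000-3020999, -0.19 at chr2:98501981-98507835, -0.17 at chr9:35112300-35113499 and -0.21 at chr9:2999659-3003299. Without ControlWT replicate 2 they were -0.04 at chr9:3024600-3030599, -0.08 at chr9:3015000-3020999, -0.03 at chr9:2999659-3003299 and -0.01 for Dnmt1. The widest region was at -0.01 without StressWT replicate 3 and at -0.03 without ControlWT replicate 1, Dnmt1 at -0.18 without StressWT replicate 3 and Uhrf1 at -0.01 without ControlWT replicate 1. Over the fits that left out a library, the highest values were 0.08 at chr2:6278949-6285841, 0.16 at chr9:3024600-3030599, chr9:3015000-3020999 and chr9:2999659-3003299, 0.19 at chr2:98501981-98507835, 0.2 at chr9:35112300-35113499, 0.66 for Uhrf1 and 0.31 for Dnmt1. Depth limits the shallow regions most, such as chr5:11477208-11478225 with 7 counts in 1 library.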

Other observations

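The 19 regions on chromosome X lie outside the description above. ControlWT replicate 1 stood below every other library in a stretch near the end of the assembled chromosome: at chrX:166433511-166435766 the counts were 104, 188 and 322 in StressWT and 13, 337 and 318 in ControlWT, and at chrX:166431362-166432699 they were 36, 77 and 183 in StressWT and 5, 221 and 135 in ControlWT. The 5hmC library of StressWT replicate 2, the mouse whose RNA library had little Xist, was the lowest of the 6 at chrX:100668699-100669699, with 19.7, 5.98 and 19.3 CPM in StressWT and 22, 22.4 and 23 CPM in ControlWT. That library was also the lowest at each region from chrX:100695881-100696918 to chrX:100787200-100788478. The same held at chrX:17760000-17761099 and chrX:17793510-17795358. Of 5 sex genes looked up in the RNA, only 1, Xist, was matched, so Y genes were not assessed.

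Near the start of chromosome 11, 19 of 20 regions in chr11:3000001-3100000 had the lower mean in StressWT. The summed values were 1310, 1230 and 1300 CPM in StressWT and 1310, 1580 and 1590 CPM in ControlWT, so that ControlWT replicate 1 was level with the StressWT mice (log2 fold change -0.22 ± 0.06, SE; adjusted p = 0.333 by edgeR over windows of 100000 bp). This stretch was chosen after its values were seen.

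The order of the rows in the deposited table is not by position. Within a chromosome, the rank of a region in the table and the rank of its p in the fit described here had a Spearman rho of 0.98 over regions, a description with no test.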
